A study of Mus musculus with 7 samples.

Results

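Growth hormone reaches the hepatocyte through its receptor Ghr, whose bound kinase JAK2 phosphorylates the transcription factors STAT5A and STAT5B. Phosphorylated STAT5 switches on Igf1, the circulating growth factor, and Igfals, which stabilises it in plasma, together with Socs2 and Cish, which shut the signal off again. In male rodents the hormone arrives in pulses, so that STAT5 targets move within hours and many liver genes differ between the sexes. Bcl6, a repressor that competes with STAT5 for DNA, is lowered by those pulses, and Prlr, the prolactin receptor, uses the same kinase and the same STATs. Socs3 is a further feedback inhibitor that also answers to interleukin 6.

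The 10 genes of this pathway described here are Ghr, Prlr, Socs2, Socs3, Cish, Stat5a, Stat5b, Bcl6, Igf1 and Igfals. They were found by symbol among 37620 Ensembl identifiers, 1 row each. RNA came from frozen whole liver of C57BL/6 mice, a strain in which some animals spontaneously have raised bile acids in the blood. Of these mice, 4 libraries were labelled H-TBA (high total bile acids) and 3 L-TBA (low total bile acids). Both groups ate a Western diet over 30 weeks, so the controls too had the diet. The labels give neither age nor sex, nor whether each library is a separate animal, so the tests measure spread among libraries that may be partly technical. All 7 libraries held 708 to 882 counts of the Y-linked Ddx3y and 1 to 6 counts of Xist, the pattern of male tissue.

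STAT5 binds the 9-base palindrome TTCNNNGAA, which reads alike on both strands and resembles the site that BCL6 recognises. It was searched in RefSeq windows from 250 bases before to 50 after each annotated start (GRCm38.p6). Of 17 windows for the 9 genes other than Socs2, 7 windows of 5 genes held it, against 8.3% of all 32851 windows. The stretches printed are those of Cish and Socs3, as feedback genes, and of Bcl6 and Igfals, to show how the matches are placed. Prlr, the fifth of these genes, has its match at position -110 of 1 of its windows. Matches are in capitals, strands follow the gene, and positions count from the start site, whose first base is 1. A match is a description of the letters and not evidence of binding.
Cish, chr9:107296659-107296678, plus strand, positions 1 to 20: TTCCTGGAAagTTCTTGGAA
Bcl6, chr16:23981352-23981461, minus strand, positions -178 to -69: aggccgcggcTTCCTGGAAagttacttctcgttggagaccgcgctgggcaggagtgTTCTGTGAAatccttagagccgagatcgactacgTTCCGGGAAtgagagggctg
Socs3, chr11:117969467-117969556, minus strand, positions -190 to -101: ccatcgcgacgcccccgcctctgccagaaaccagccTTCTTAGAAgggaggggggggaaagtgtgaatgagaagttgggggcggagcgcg
Igfals, chr17:24878131-24878210, plus strand, positions -100 to -21: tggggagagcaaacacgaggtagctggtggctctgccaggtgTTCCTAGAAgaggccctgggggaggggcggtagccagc

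The pair in Cish lies in the first bases of its transcript, in the 5′ untranslated leader, and 0.457% of windows held 2 or more matches. The Bcl6 window with the triplet is 1 of 11 windows, 0.0335%, that held 3 or more. Neither window of Ghr, Stat5a or Stat5b held a match, nor did the single window of Igf1.

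Libraries held 9996990 to 12152613 counts. On the first principal component, 65.7% of the variance, H-TBA 1 lay at 6.48, between the other H-TBA libraries at 27.3 to 35.9 and L-TBA at -35.9 to -29.4. Values are counts scaled to library size (TMM-scaled CPM), and calls are edgeR quasi-likelihood tests over 15249 genes at an adjusted p of 0.05. Hepatocyte markers (8 of 9 symbols matched) summed to 60550 to 69990 CPM in H-TBA and 62590 to 72810 in L-TBA. Single markers went both ways: of the 8 tested, 3 rose and 2 fell (62.5%, against 23.9% of all tested genes). All 10 bile duct markers rose, and their sum ran from 970.2 to 1882 CPM in H-TBA against 460.5 to 728.0 in L-TBA. In whole liver, fewer cells of a type and less RNA per cell cannot be told apart, and the part of cell makeup in the results that follow was not tested.

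Of the 10 genes 5 passed, against a background of 23.9% of all tested genes. Socs2 and Igf1 rose, where 13.1% of all genes did, and Ghr, Prlr and Stat5a fell, where 10.7% did. The receptors and 1 STAT were thus lower in the same livers in which a feedback gene and the main secreted target were higher. Socs3, Cish, Stat5b, Bcl6 and Igfals did not pass. In 6 of the 10 genes the groups did not overlap, which was true of 33.5% of all genes. The median log2 fold change was -0.16, and 0.00 over all genes.

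**Figure D1:**
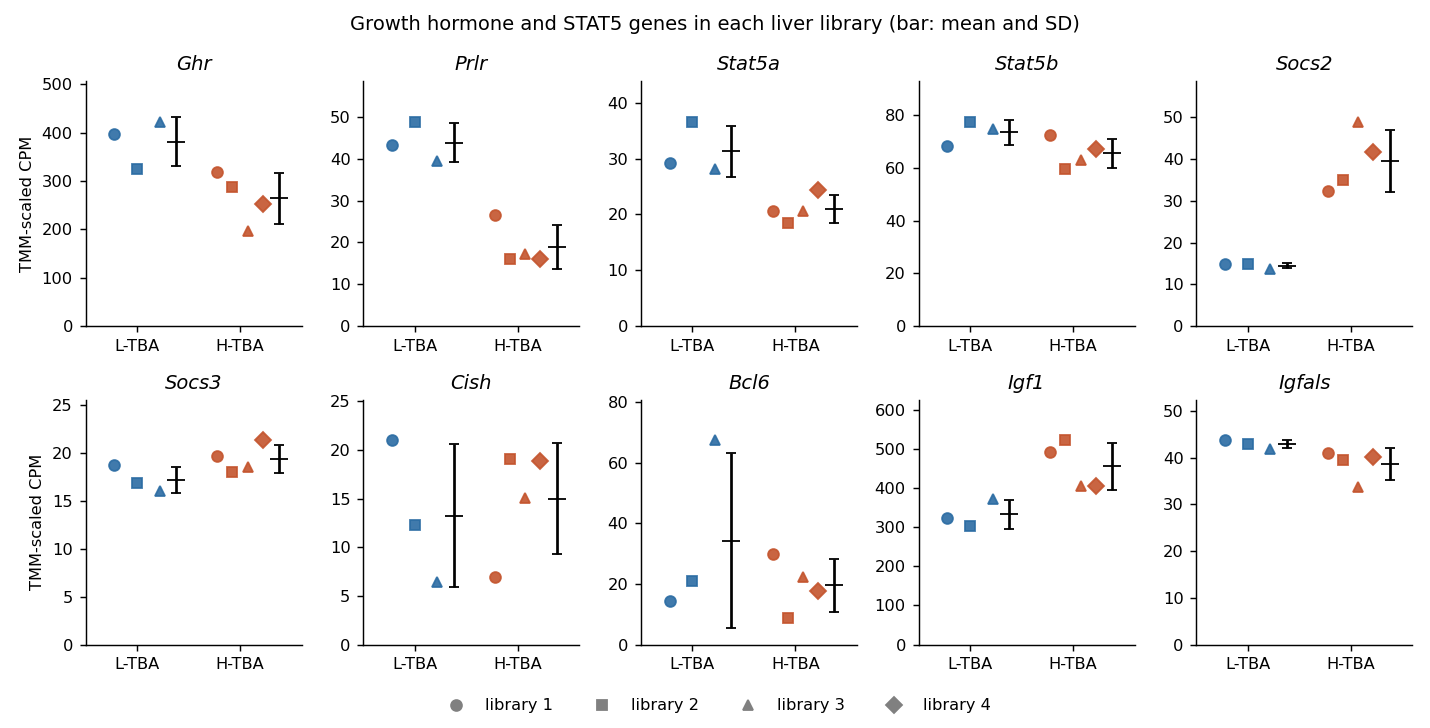
Library-scaled CPM (y axis, from 0) of the 10 genes in 3 L-TBA (blue) and 4 H-TBA (orange) libraries; symbols give the library number, and the bar is the mean with its SD. Socs2 separates the groups widely, Ghr, Prlr, Stat5a and Igf1 separate them with narrower gaps, and Cish and Bcl6 spread within each group.

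Ghr, the growth hormone receptor, stood at 397, 324 and 422 CPM in L-TBA 1 to 3 and at 319, 288, 197 and 252 CPM in H-TBA 1 to 4. Every H-TBA library lay below every L-TBA library, but H-TBA 1 and L-TBA 2 nearly met. Ghr fell by 0.53 ± 0.16 on the log2 scale (SE; adjusted p = 0.0294), to 0.693 of the L-TBA level. The Ghr call was lost without H-TBA 4, L-TBA 1 or L-TBA 3 (adjusted p = 0.0824, 0.0917 and 0.104) and with the replicate number as a block (adjusted p = 0.121).

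Prlr, the prolactin receptor, binds lactogenic hormones and is more abundant in female than in male mouse liver. It was at 43.2, 48.8 and 39.5 CPM in L-TBA and at 26.6, 15.9, 17.1 and 15.9 CPM in H-TBA. H-TBA 1 was the highest of its group and still well below the lowest L-TBA library. Prlr fell by 1.22 ± 0.17 on the log2 scale (adjusted p = 0.000635), the largest fall among the 10 genes, and by 1.43 without H-TBA 1. It passed in all 16 alternatives that were run.

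The paired STAT genes lie side by side on mouse chromosome 11 and are similar in sequence, so that their reads could be divided uncertainly. Stat5a was at 29.3, 36.6 and 28.2 CPM in L-TBA and at 20.6, 18.4, 20.7 and 24.4 CPM in H-TBA. Its groups did not overlap, and it fell by 0.58 ± 0.12 (adjusted p = 0.00575; called in all 16 alternatives). Stat5b, the main STAT5 of hepatocytes, was at 68.2, 77.4 and 74.6 CPM in L-TBA and at 72.4, 59.6, 63.1 and 67.2 CPM in H-TBA. The groups overlapped through H-TBA 1, and the log2 fold change of -0.16 ± 0.09 did not pass (adjusted p = 0.211). Per kilobase of exon, Stat5b exceeded Stat5a 2.72- to 3.40-fold in L-TBA and 3.56- to 4.52-fold in H-TBA. That ratio needs no library scaling; it was chosen after the levels had been seen and was not tested.

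Socs2 encodes the inhibitor whose loss in mice causes overgrowth through unchecked growth hormone signalling. It was at 14.9, 14.8 and 13.7 CPM in L-TBA and at 32.3, 34.9, 48.9 and 41.7 CPM in H-TBA. The lowest H-TBA library was above the highest L-TBA library by more than the whole spread of L-TBA. Socs2 rose 2.73-fold, or 1.45 ± 0.14 on the log2 scale (adjusted p = 0.000141), and passed in all 16 alternatives.

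Socs3, whose window is printed above, was at 18.7, 16.8 and 16 CPM in L-TBA and at 19.7, 18.0, 18.5 and 21.3 CPM in H-TBA. The groups overlapped within a narrow range, and Socs3 did not pass (0.17 ± 0.10, adjusted p = 0.254). The ratio of Socs2 to Socs3 per kilobase was 0.242 to 0.268 in L-TBA and 0.497 to 0.803 in H-TBA. That separation follows from the levels of Socs2 given above, so no test of it is given.

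Cish encodes CIS, an early STAT5 target that blocks the receptor's docking sites. It was at 21.0, 12.3 and 6.41 CPM in L-TBA and at 6.91, 19.1, 15.1 and 18.9 CPM in H-TBA. Both groups ran from about the same low to about the same high. The log2 fold change was 0.17 ± 0.37 (adjusted p = 0.781), smaller than its SE. Cish varied 3.27-fold within L-TBA and 2.76-fold within H-TBA. After adding 0.5 CPM, only 0.439% and 1.53% of tested genes varied as much in those groups.

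Bcl6, the repressor of STAT5-driven genes, was at 14.3, 20.9 and 67.3 CPM in L-TBA and at 29.7, 8.60, 22.2 and 17.5 CPM in H-TBA. L-TBA 3 was far above every other library, and the rest of the groups overlapped. The log2 fold change of -0.79 ± 0.48 did not pass (adjusted p = 0.259), and it was 0.15 without L-TBA 3. Cish, too, turned sign without L-TBA 3, to -0.15. Bcl6 varied 4.72-fold within L-TBA, which 0.157% of tested genes matched, and 3.45-fold within H-TBA, which 0.577% matched.

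Cish and Bcl6 ran opposite to each other across the 7 libraries. L-TBA 3 and H-TBA 1 had the lowest Cish and the highest Bcl6, and H-TBA 2 and L-TBA 1 had the highest Cish and the lowest Bcl6. Over the 7 libraries Pearson's r of log2 CPM was -0.87 (exact permutation p = 0.00179, adjusted over all 45 pairs of the 10 genes 0.0298). Spearman's rho was -0.93 (exact permutation p = 0.00675, adjusted 0.101). Without L-TBA 3 and H-TBA 1, the libraries farthest from the median of Cish, r was -0.64 over 5 libraries. This pair was picked after the values had been seen, and both genes share the library scaling. It did not stand alone among the 45 pairs. Stat5a with Igf1 (r = -0.94) and Ghr with Socs2 (r = -0.89) had the same adjusted permutation p for r, 0.0298. For each of them rho was -0.96 (adjusted permutation p = 0.0625). The groups of Stat5a, Igf1, Ghr and Socs2 did not overlap, whereas those of Cish and Bcl6 did. The permutation shuffled libraries regardless of group, so r of these other pairs includes the group differences given above. Whether they vary together within groups was not tested.

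**Figure D2:**
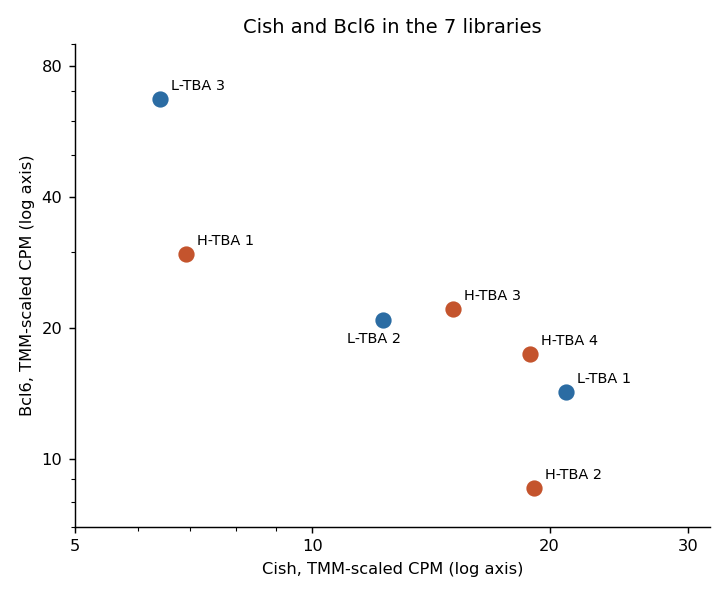
Cish (x) against Bcl6 (y), both in library-scaled CPM on log axes, 1 point per library, blue for L-TBA and orange for H-TBA. The points run from L-TBA 3 (Cish 6.41, Bcl6 67.3) down to H-TBA 2 (19.1 and 8.60), with libraries of both groups intermixed.

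Igf1, the growth factor through which the liver passes on the hormone's signal, was at 323, 303 and 374 CPM in L-TBA and at 493, 523, 406 and 406 CPM in H-TBA. All H-TBA libraries were above all L-TBA libraries. Igf1 rose 1.37-fold, by 0.46 ± 0.12 in log2 (adjusted p = 0.0205). The Igf1 call was lost without H-TBA 2, L-TBA 1 or L-TBA 2 (adjusted p = 0.0596, 0.0819 and 0.0897) and with the replicate block (adjusted p = 0.0824).

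Igfals encodes the acid-labile subunit of the circulating IGF complex. It was at 43.7, 43.0 and 41.9 CPM in L-TBA and at 41.1, 39.6, 33.7 and 40.1 CPM in H-TBA. The groups did not overlap, yet they differed little, and Igfals did not pass (-0.15 ± 0.09, adjusted p = 0.233). Under scaling by library totals, which moved the median of all genes up by 0.16, its log2 fold change turned sign, to 0.0015 (adjusted p = 0.991).

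Ghr and Igf1 exchanged places in CPM and per kilobase of exon. Per kilobase of exon, the ratio of Igf1 to Ghr was 0.743, 0.854 and 0.81 in L-TBA and 1.41, 1.66, 1.89 and 1.47 in H-TBA. It was below 1 in 3 of 3 L-TBA and above 1 in 4 of 4 H-TBA libraries. Since neither gene's groups overlap, the separation of the ratio follows from the levels, so no test of it is given.

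On the same per-kilobase scale the L-TBA order was Ghr (42.1 ± 5.62 CPM per kb, SD, n = 3), Igf1 (33.6 ± 3.69), Igfals (13.5 ± 0.292) and Stat5b (13.3 ± 0.86). Socs3 (5.93 ± 0.469), Bcl6 (5.10 ± 4.31), Stat5a (4.40 ± 0.639), Prlr (2.86 ± 0.307), Cish (2.06 ± 1.14) and Socs2 (1.52 ± 0.0672) followed. Igfals and Stat5b lay within each other's SD. Bcl6 differed from both of its neighbours by less than its own SD, as did Cish from its own, but by more than the neighbours' SD. In H-TBA, Igf1 led with 46.2 ± 6.08 CPM per kb (SD, n = 4) before Ghr with 29.1 ± 5.82. Socs2 moved from the last place to the sixth (4.14 ± 0.78) and Prlr to the last (1.23 ± 0.339). The kilobases join all annotated exons of a gene and can exceed the transcripts made in liver, so the order between genes depends on them. Prlr, with 15.3 kb, had 18.9 CPM in H-TBA, above Cish with 15.0. In H-TBA, Stat5a (2.95 ± 0.347) and Bcl6 (2.91 ± 1.32) lay within each other's SD, as did Bcl6 and Cish (2.33 ± 0.885), and Igfals (12.2 ± 1.05) and Stat5b (11.8 ± 0.994).

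**Figure D3:**
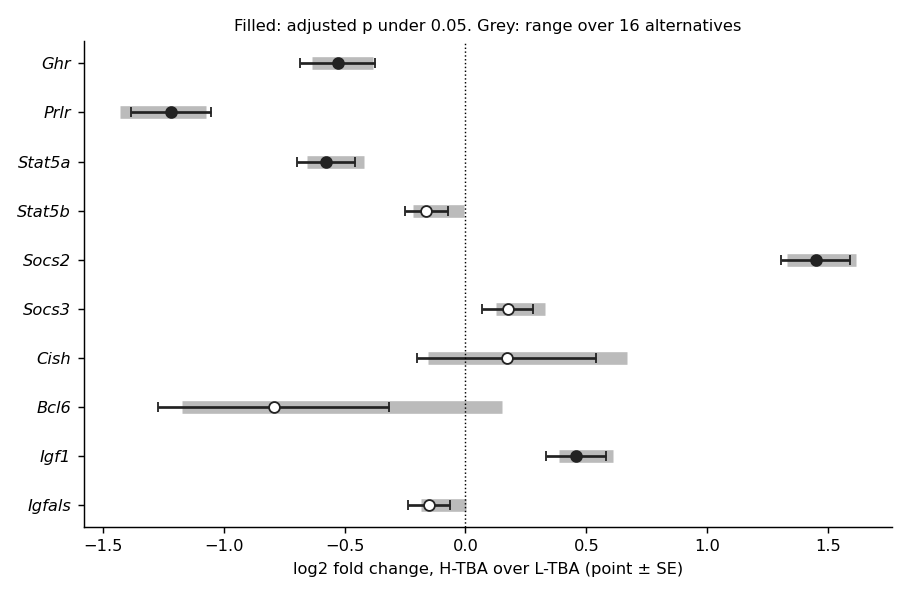
Log2 fold change of H-TBA over L-TBA for the 10 genes, point with SE; filled points passed the test, and grey bars span the 16 alternative fits. Socs2 at 1.45 and Prlr at -1.22 stand farthest from 0, while the bars of Cish and Bcl6 cross 0. That of Igfals just crosses it, ending at 0.0015.

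Male-biased liver genes, which depend on pulsed growth hormone and STAT5B, were read as an output of the pathway. Of 21 such genes 17 were tested: 3 rose (Selenbp2, Serpina1e and Egfr) and 3 fell (Susd4, Mup21 and C4a), 35.3% against the 23.9% background. Susd4 fell by 2.28 ± 0.47 and Mup21, a urinary protein gene, by 1.45 ± 0.26. Egfr, the EGF receptor, and Selenbp2 rose by 0.70 ± 0.16 and 0.68 ± 0.15. Serpina1e rose by 0.67, a call lost without H-TBA 2, L-TBA 1 or L-TBA 2. Members of the Cyp4a12, Mup, Serpina1 and C4 families have near-identical copies, and their counts are uncertain. The sterol hydroxylase gene Cyp7b1 (0.25 ± 0.26, adjusted p = 0.528) and the elongase gene Elovl3 (-0.18 ± 0.40, adjusted p = 0.782) did not pass; that of Elovl3 was 0.63 without L-TBA 3. Hsd3b5, an abundant enzyme of normal male liver, had 0 to 4 counts per library in either group and was not tested.

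Within groups these genes followed single libraries. Of the 17 tested, 16 were highest in L-TBA 3 among the L-TBA libraries, where 34.2% of all tested genes were, with C4a the exception. Among the H-TBA libraries 11 of 17 were highest in H-TBA 1, where 29.4% of all genes were. Other lists leaned to these libraries too: 5 of 8 hepatocyte markers were highest in L-TBA 3 and 5 of 8 in H-TBA 1 of their groups, 6 of 9 endothelial and 5 of 8 macrophage markers in L-TBA 3, and 5 of 7 of the lipid genes described last in H-TBA 1. Whether the male-biased genes differ from those lists was not tested. L-TBA 3 and H-TBA 1 are the libraries with the lowest Cish and the highest Bcl6. Elovl3, for example, was at 60.6 CPM in L-TBA 3 against 18.1 and 18.3 in the others, and at 44.1 in H-TBA 1 against 20.7 to 26.4. This count was made after the values had been seen, and the genes share their libraries.

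**Figure D4:**
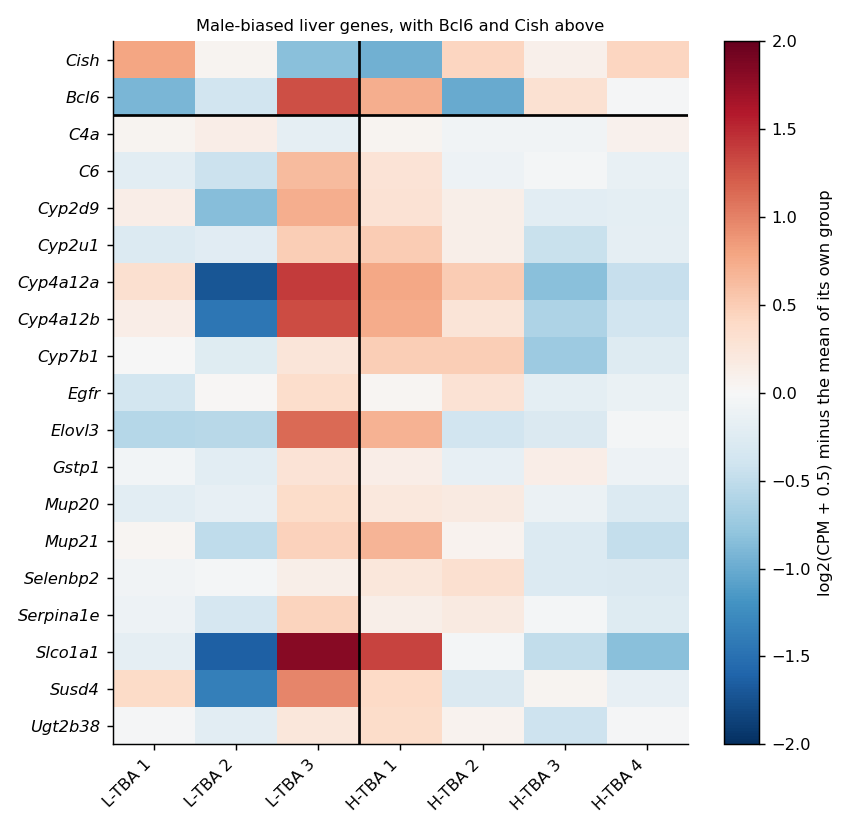
Male-biased genes (rows below the line) and Cish and Bcl6 (above it) in each library, as log2(CPM + 0.5) minus the mean of the library's own group; red is above and blue below that mean. The columns of L-TBA 3 and H-TBA 1 are mostly red, together with high Bcl6 and low Cish.

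Of 29 female-biased liver genes 23 were tested. Of these 8 rose and 3 fell (47.8% called, against 23.9% of all tested genes), with 5 higher without L-TBA 1. Fmo2, a flavin monooxygenase, was at 23.4 ± 0.706 CPM in L-TBA and 73.3 ± 7.09 in H-TBA, and it rose by 1.64 ± 0.095 (adjusted p = 9.94e-06). Cux2, a female-specific liver repressor, rose by 1.51 ± 0.34 to 2.38 CPM, and Ntrk2 rose by 0.67 ± 0.11. Nipal1 passed at 1.23 (lost without L-TBA 1). The other 4 that rose, Cyp3a16, Cyp3a41a, Cyp3a41b and Cyp3a44 (0.46 to 0.53), are near-identical genes that may share counts, and those of Cyp3a41a and Cyp3a44 were lost without L-TBA 1. Slc22a27 fell by 1.73 ± 0.27, Cyp2a22 fell by 0.60 ± 0.09 and Abcd2 fell by 0.32 (lost without H-TBA 4 or L-TBA 1). Cyp2b9 ranged from 0.467 to 26.4 CPM in H-TBA and from 4.41 to 46.3 in L-TBA, without passing (adjusted p = 0.197). Its paralog Cyp2b13 (-0.97, adjusted p = 0.525) did not pass either, and was at 0.25 without L-TBA 2. A1bg had 0 to 7 counts in any library, too low to be tested.

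Genes of the IGF axis, which carry and limit the signal of Igf1, rose where they passed. Of 12 tested, 6 rose and 0 fell, with a median log2 fold change of 1.08 against 0.00 over all genes. Igfbp2, an IGF-binding protein that growth hormone normally lowers, had 476 ± 57.2 CPM in L-TBA and 1355 ± 237 in H-TBA and rose by 1.51 ± 0.15 (adjusted p = 0.000145). Igfbp1, another such protein induced by fasting and low insulin, rose by 1.26 ± 0.23 and Igfbp7, a matrix-bound relative, by 1.003 ± 0.18. Stc2, an inhibitor of the protease that frees IGF1, rose by 1.796 ± 0.30 to 3.61 CPM. The others, named after their values had been seen, were the receptor gene Igf1r (1.76 ± 0.33, to 3.41 CPM) and Igfbp6 (2.61 ± 0.51, to 1.58 CPM). Igfbp3, the carrier that binds IGF1 with the Igfals product, did not pass at 0.47 ± 0.21 (adjusted p = 0.131).

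Jak2, the kinase bound to the receptor, was at 29.3, 27.2 and 24.6 CPM in L-TBA and between 24.0 and 25.0 in H-TBA, and it missed the threshold (-0.15 ± 0.09, adjusted p = 0.236). With library totals its log2 fold change was 0.0034 and that of Stat3 0.031. Of 19 kinase and adaptor genes 3 rose and 2 fell (26.3% called, close to the 23.9% of all tested genes). The insulin receptor substrate gene Irs2 rose by 0.79, the docking protein gene Gab1 by 0.63 and the kinase gene Mapk3 by 0.43. The regulatory subunit gene Pik3r1 fell by 0.57 and the adaptor gene Grb2 by 0.26. Each of these 5 calls was lost without at least 1 library: 4 libraries for Irs2 (H-TBA 3 and 4, L-TBA 1 and 3), L-TBA 2 for Gab1, 5 for Mapk3 (H-TBA 2, 3 and 4, L-TBA 2 and 3), L-TBA 1 for Pik3r1 and 4 for Grb2 (H-TBA 2 and all of L-TBA).

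Among the other STAT genes, Stat2, a mediator of interferon signals, fell by 0.63 ± 0.10 (adjusted p = 0.00115). Stat4, a lymphocyte STAT at 3.39 CPM in H-TBA, rose by 1.39, a call lost without H-TBA 2, 3 or 4 or L-TBA 1 or 2. Stat3, which serves interleukin 6, did not pass (-0.13 ± 0.11, adjusted p = 0.438). Another 17 genes limit the signal or turn over the receptor (further SOCS genes, phosphatases, PIAS genes, Sirpa, Adam17 and Btrc). Of these 2 rose, Socs5 (0.58) and Pias4 (0.40), and 0 fell (11.8% called, against 23.9% of all tested genes). Both calls were lost without H-TBA 3 or 4 or L-TBA 3, and that of Pias4 also without H-TBA 2 or L-TBA 2. Socs6 (0.24 ± 0.10) did not pass.

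Of 13 liver transcription factors that act with STAT5, Cux2 rose and 0 fell (7.69% called, against 23.9% of all tested genes). These factors had 2 higher without L-TBA 1 and 1 lower without H-TBA 1. Onecut1, a growth hormone target, was at 2.20 ± 1.57 CPM in L-TBA and 2.93 ± 0.579 in H-TBA and did not pass, nor did Tox (-0.42) or Cebpa (-0.29). Of 8 STAT5 targets known from several tissues 1 rose and 0 fell (12.5% called, against 23.9% of all tested genes). The gene that rose was the cyclin gene Ccnd1 (0.84 ± 0.20, adjusted p = 0.0109). That list had 2 higher without H-TBA 3 or L-TBA 1 and 1 lower without L-TBA 2. Its other named members, the kinase gene Pim1 and Gadd45g, did not pass (-0.58 and 0.59).

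Acute phase genes, which interleukin 6 induces through STAT3, and the interleukin 6 family receptors were read beside Socs3. Of 16 tested 7 fell and 0 rose (43.8% called, against 23.9% of all tested genes). The count was 4 lower without L-TBA 1 or 2 and 11 lower without L-TBA 3, with 1 higher without H-TBA 1. Saa3, Orm3 and Orm1, secreted acute phase proteins, fell by 1.40 ± 0.27, 1.21 ± 0.17 and 0.86 ± 0.14. The others were Orm2, Saa1, Saa2 and haptoglobin (Hp); the call of Saa1 was lost without H-TBA 2 or 4 or L-TBA 1 or 2, that of Saa2 without L-TBA 1 or 2, and that of Hp without H-TBA 1, 2 or 4 or L-TBA 1 or 2. The paralogs may share counts. Macrophage markers summed to 211 to 255 CPM in H-TBA and 283 to 391 in L-TBA, and neutrophil markers to 14.6 to 15.2 and 21.2 to 26.0; their part in these values was not tested.

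Lipid genes known to rise in livers that lack the hormone's receptor, JAK2 or STAT5 were read last. Of 7 such genes 5 fell and 0 rose (71.4% called, against 23.9% of all tested genes), with a median of -0.87. The fatty acid carrier gene Cd36 had 386 ± 14.6 CPM in L-TBA and 210.3 ± 33.3 in H-TBA and fell by 0.87 ± 0.12 (adjusted p = 0.000644). The lipid droplet gene Cidec fell by 0.87 ± 0.15, and Cidea (-4.43), the acyltransferase gene Mogat1 (-1.80) and the lipogenic factor Pparg (-0.66) passed as lower too.

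**Figure D5:**
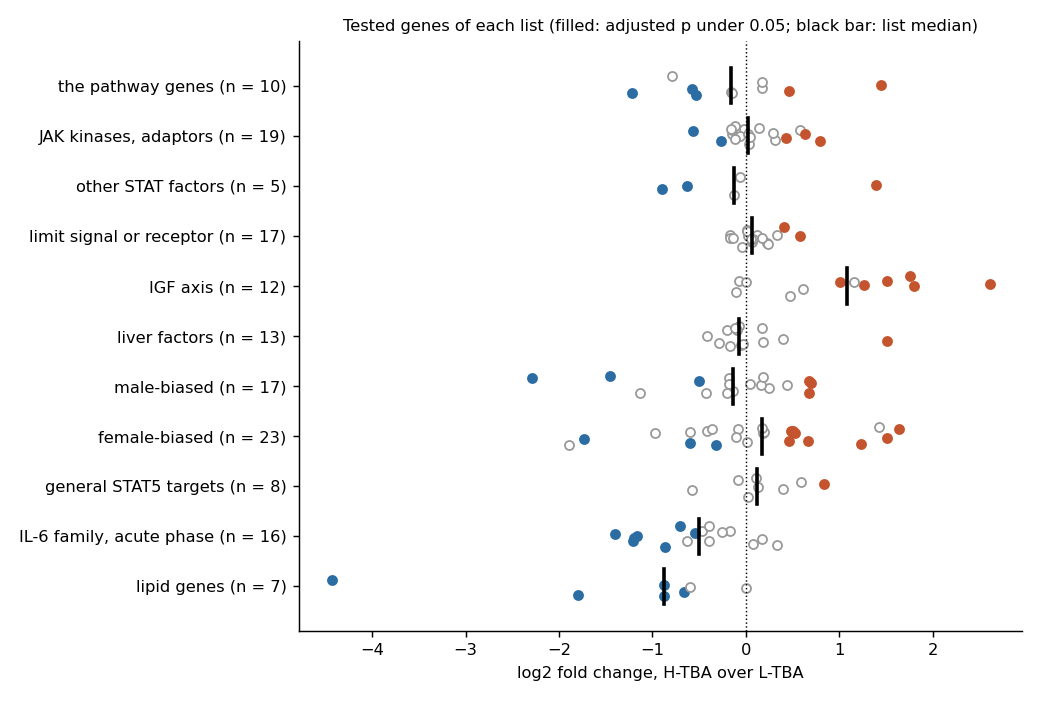
Log2 fold change of every tested gene in the 10 pathway genes and the 10 related lists (x axis), 1 point per gene, filled orange or blue where it passed as higher or lower; the black bar is the list's median. The IGF axis lies mostly right of 0 (10 of 12 genes, median 1.08). The acute phase list lies mostly left of it (3 of 16 genes positive, median -0.50). The lipid list lies wholly left of it (median -0.87), and the others have genes on both sides.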

How the data were processed

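The deposited table holds whole-number counts, 1 row for each Ensembl identifier, with no scaling by the authors. Per the submitters' processing notes, TopHat2 (2.0.11), CASAVA and DESeq2 (1.18.1) were used with the mm9 build; which program counted reads, with which strand setting and annotation, is not given in the sources used here. Without a strand setting, overlapping and antisense genes and near-identical copies may share counts. Symbols and exon lengths came from GENCODE M21 and promoter windows from RefSeq, both GRCm38 and not the authors' build, so count rows carry no coordinates; 32897 of 37620 identifiers had a symbol.

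Genes were filtered with filterByExpr (minimum count 10, minimum total 15), leaving 15249 of 23697 detected genes, scaled by TMM and tested with edgeR 4.0.16 in R 4.3.3 (quasi-likelihood, group as the only term, Benjamini-Hochberg over all tested genes at 0.05). The common biological coefficient of variation was 0.125. Each fold change divides H-TBA by L-TBA, with the SE derived from the F statistic. CPM use effective library sizes. The 10 genes had 64 to 5354 counts per library. Steps were tested on simulated counts.

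Members and lists were chosen with earlier results of these data known. Named genes were all 10 members, up to 3 genes of each list with the smallest adjusted p, and 14 context genes whatever their result; others are named where a list's calls are given in full, and some genes that the rule names are not reported here. Alternatives were DESeq2 1.42.0, limma-voom (limma 3.58.1) with quality weights, DESeq2 size factors, library totals, TMM with the top 20 genes removed, a stricter filter (1 CPM in 3 libraries) or none, a robust fit, the replicate block, thresholds of 0.01 and 0.1, and leaving out each library. Same-numbered libraries deviated from their group means with correlations of -0.108, -0.0752 and -0.0968. The labels state no pairing and the numbers were not taken to pair the libraries, though these correlations cannot exclude it. Within groups, library pairs differed by chi-square over degrees of freedom of 5.64 or more, beyond repeat sequencing of the same library. Each was therefore counted as its own sample. The measure cannot tell separate animals from separate preparations of the same liver.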

Additional observations from a re-analysis of the deposited data

Results flagged for a closer look

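Of the named genes 7 had 1 H-TBA library far from the other 3, judged by the gap to the nearest library as a share of the group's range (Dixon's criterion at the 95% level). Chance marks about 1 in 20 groups, and 71 were examined. Prlr had a share of 0.887, with H-TBA 1 at 26.6 CPM above 15.9 to 17.1 in the others. Slc22a27 (0.839) had H-TBA 3 at 2.03 CPM below 2.44 to 2.52. Saa3 (0.863) had H-TBA 2 at 3.42 CPM below 7.56 to 8.22. The Kupffer cell gene Clec4f (0.956) had H-TBA 3 at 16.8 CPM below 28.2 to 28.7. Jak2 (0.836) had H-TBA 3 at 25.0 CPM above 24.0 to 24.2, a gap of less than 1 CPM. Cyp2b9 (0.98) had H-TBA 2 at 26.4 CPM above 0.467 to 0.976, and Cyp2b13 (0.94) had H-TBA 2 at 5.28 CPM above 0.162 to 0.467.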

How the results depend on the processing

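Prlr, Stat5a and Socs2 kept their direction and their call in all 16 fits other than the one reported; Ghr and Igf1 kept their direction and were called in 12 of 16. Over all counts compared, 371 stayed within 1.5 times and 61 did not. Library totals gave 3117 higher and 832 lower genes in all, 1 lower kinase or adaptor gene, 5 higher signal-limiting genes, 2 higher general STAT5 targets and 1 higher acute phase gene. With the replicate block, in which H-TBA 4 has no partner, 1166 genes were higher and 754 lower; 1 of the 10 pathway genes was higher, as were 0 kinase or adaptor genes (1 lower), 0 other STATs, 0 signal-limiting genes and 0 general STAT5 targets, and 3 acute phase genes were lower. The labels do not say that the numbers pair the libraries. At a threshold of 0.01, 1126 genes were higher and 749 lower; 1 pathway gene, 0 kinase or adaptor genes (0 lower), 0 other STATs, 0 signal-limiting genes, 1 male-biased gene and 0 general STAT5 targets were higher, and 4 acute phase genes lower. At 0.1, 1 liver factor, 5 female-biased genes and 1 general STAT5 target were lower. Limma-voom gave 2 lower liver factors and no filter 1 lower general STAT5 target.

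Leaving out each library in turn gave 1035 to 2123 lower genes in all, 1 to 2 higher pathway genes, 1 to 4 higher and 0 to 2 lower kinase or adaptor genes, 0 to 1 higher other STATs and 0 to 2 higher signal-limiting genes. The range was 1 to 2 higher and 0 to 1 lower for liver factors, 5 to 10 higher for female-biased genes, 1 to 2 higher and 0 to 1 lower for general STAT5 targets, and 0 to 1 higher and 4 to 11 lower for acute phase genes. The count of lower genes of 1035 was that without L-TBA 1. Signs turned for Cish (range -0.15 to 0.67 over libraries left out), Bcl6 (-1.17 to 0.15), Elovl3 (-0.48 to 0.63) and the B cell marker Ms4a1 (-2.56 to 0.13) without L-TBA 3, for Cyp2b13 (-1.50 to 0.25) without L-TBA 2 and, with library totals, for Igfals (0.0015), Jak2 (0.0034) and Stat3 (0.031). The cause was not tested. Depth was lowest for Cish among the pathway genes, at 64 to 243 counts per library.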
